A study of Homo sapiens with 6 samples.

Results

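This report describes 41 genes of the unfolded protein response and of the ATF4 stress program in OVCAR5 cells, an established human ovarian cancer line. The genes were taken by symbol, by a rule that uses no measured value, but earlier results of these data were known when they were chosen. Each was found among the 60649 gene rows of the count table, of which 22038 passed the filter on low counts. All 41 passed it. They were kept apart as a chaperone arm of 19 genes and an ATF4 arm of 22 genes. The 6 libraries hold mRNA from 3 samples of OVCAR5 transduced with a lentivirus that carries METTL3 in the pCDH vector and selected with puromycin (METTL3), and from 3 controls (vector). The treatment label gives the controls the empty-vector lentivirus, whereas the design text calls them parental, and no label names a cisplatin treatment. METTL3 is the catalytic subunit of the complex that places m6A, the methyl mark on adenosines in mRNA, and the comparison asks which transcripts change in level when it is overexpressed. No source used here says that the 3 samples of a group were separate cultures, so p-values measure the spread between these samples, which may be technical.

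When misfolded proteins gather in the endoplasmic reticulum (ER), 3 sensors in its membrane respond. IRE1 (encoded by ERN1) splices XBP1 mRNA, ATF6 is cleaved into a transcription factor, and PERK (encoded by EIF2AK3) phosphorylates the translation factor eIF2. XBP1 and ATF6 raise ER chaperones and the machinery that sends misfolded proteins to degradation. Phosphorylated eIF2 slows general translation and favours translation of ATF4, a transcription factor that raises genes of amino acid supply, tRNA charging and stress feedback. Other kinases that sense amino acid shortage, heme or double-stranded RNA feed into ATF4 too. The splicing of XBP1, the cleavage of ATF6 and the translation of ATF4 cannot be seen in gene counts.

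The arms differed in the ER stress element of their promoters, and less in the other motifs searched, which is shown here because the text keeps them apart. RefSeq windows of GRCh38.p14, from 250 bases before to 50 bases after each start, were found for all 19 genes of the chaperone arm and for 21 of the ATF4 arm, with none for SHMT2. The ER stress element, CCAAT and CCACG with 9 bases of any kind between them, was in windows of 6 genes of the chaperone arm (CALR, CRELD2, HSP90B1, HSPA5, PDIA6 and XBP1), in 0 of 21 of the ATF4 arm and in 0.0769% of all 35116 windows. The second form of the element, ATTGG and CCACG with 1 base of any kind between them, was in 3 further genes of the chaperone arm (HERPUD1, HYOU1 and SDF2L1), in 0 of 21 of the ATF4 arm and in 0.0541% of all windows. The ATF4 site (CARE), searched as TGATGNAA, was in ASNS, CHAC1 and SLC3A2 of the ATF4 arm (14.3% of 21). It was also in HERPUD1 of the chaperone arm and in 3.62% of all windows. The XBP1 site (UPRE), TGACGTGG, was in HYOU1 alone, overlapping one of its ER stress elements of the second form, and in 0.729% of all windows. Listed genes were counted by gene, some with several windows (SLC3A2 has 3), whereas the shares of all windows count each window, so the measures differ. Both strands were searched, and a match is a description of the letters, not of binding. The lines below give examples of both forms of the ER stress element and of CARE, with the matched motif in capitals and read 5′ to 3′ on the strand of the gene. HSPA5 lies at chr9:125241386-125241414 on the minus strand, XBP1 at chr22:28800598-28800626 on the minus strand and CRELD2 at chr22:49918549-49918577 on the plus strand, where the element runs in the opposite orientation. CHAC1 lies at chr15:40953257-40953274 on the plus strand, with CARE in the opposite orientation, and ASNS at chr7:97872464-97872481 on the minus strand. HERPUD1, at chr16:56931961-56932040 on the plus strand, holds CARE (opposite orientation) and the second ER stress element in 80 bases.
HSPA5: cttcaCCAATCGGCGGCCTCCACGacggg
XBP1: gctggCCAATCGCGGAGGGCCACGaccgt
CRELD2: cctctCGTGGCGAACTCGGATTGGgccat
CHAC1: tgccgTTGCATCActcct
ASNS: aggcaTGATGAAActtcc
HERPUD1: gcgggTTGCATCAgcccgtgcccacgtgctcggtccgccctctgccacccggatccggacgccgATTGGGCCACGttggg

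Total counts ranged from 96633925 to 125463386 in the 6 libraries. METTL3 itself, which checks the labels, was at 152, 165 and 175 CPM (the count scaled to the library's total, adjusted by TMM) in METTL3 replicates 1, 2 and 3 and at 80.6, 68.6 and 71.6 CPM in the vector replicates, a log2 fold change of 1.16 (standard error, SE, 0.12, adjusted p = 0.072, edgeR quasi-likelihood test with Benjamini-Hochberg adjustment over all genes tested). Replicate number 1 stood apart. With the group in the model, 1997 of 22038 genes (9.06%) differed between the replicate 1 libraries and the others at an adjusted p under 0.05, against 0 for number 2 and 0 for number 3 (191 and 273 genes at an unadjusted p under 0.05). The difference between METTL3 and vector was also another one within number 1. For the METTL3 gene itself it was smaller there, at a log2 of 0.92 against 1.27 and 1.29 within numbers 2 and 3. An interaction term called 6652 genes (30.2%), against 0 for numbers 2 and 3 (168 and 121 at an unadjusted p under 0.05). In both comparisons the fits for numbers 2 and 3 keep number 1 among the other libraries. Its difference widens their spread, so they were less able to call genes, and their counts are not on a par with those for number 1. Because of number 1, the values of the members below are given by replicate number where a result turns on them, and a fit without number 1 follows. All 7 epithelial markers checked, EPCAM, KRT8 and KRT18 among them, were present in every library, summing to 8717, 7958 and 7767 CPM with METTL3 and to 9734, 6341 and 6246 CPM with vector. Among fibroblast, endothelial and immune markers, PTPRC, CD3E, DCN, COL1A2 and KDR stayed under 0.1 CPM, and COL1A1 and CD14 reached 18.1 and 11.4 CPM. The 3 endothelial markers tested summed to 22.2, 9.77 and 7.99 CPM with METTL3 and to 8.18, 6.10 and 5.15 CPM with vector, nearly all of it PECAM1. The part of these markers in the results was not tested. In bulk RNA, fewer cells of a type and less RNA per cell cannot be told apart.

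Levels per kilobase, as a mean over the 6 libraries, used the merged length of all annotated exons of a gene. This can far exceed the transcript tagged as canonical by Ensembl, as for HSP90B1 (13092 against 2782 bases), SLC3A2 (6392 against 1885) and ATF4 (2613 against 1419). Such genes rank lower by merged length, and the order by canonical length was not computed. By merged length, the highest member of the chaperone arm was CALR at 369 CPM per kilobase, a calcium-binding chaperone of glycoproteins. PDIA4, a disulfide isomerase, followed at 174, and HSPA5, the ER chaperone BiP that holds the sensors inactive, at 165. The sensors ERN1 (2.10) and EIF2AK3 (1.30) were the lowest of the arm. In the ATF4 arm, SLC7A5, the light chain of the LAT1 amino acid transporter, was the highest by merged length at 161 CPM per kilobase. ATF4 at 123 and DDIT4 at 119.5 followed by that length. ASNS, asparagine synthetase, was the lowest at 0.355. Of its exon bases 49.3% are shared with a second annotated gene on the same strand, so reads may have been left uncounted, and its level is uncertain.

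On all 6 libraries, METTL3 against vector called 0 members of either arm and 0 of all genes tested (0%) by edgeR, with 1 member of each arm (ERN1 and DDIT4) and 8.3% of all genes at an unadjusted p under 0.05. DESeq2 called 283 genes (1.28%) and 0 members. Without the filter on low counts 1.3% of 43096 genes were called, ERN1 and DDIT4 among them. The median log2 fold change was 0.21 over the ATF4 arm and 0.02 over the chaperone arm, against -0.02 over all genes. Those medians hide opposite values in the replicate numbers. In METTL3 replicate 1 the ATF4 arm summed to 3967 CPM and in vector replicate 1 to 2760 CPM. In replicates 2 and 3 it summed to 3035 and 2965 CPM with METTL3 and to 3154 and 2998 CPM with vector. The chaperone arm summed to 5742, 5593 and 5663 CPM with METTL3 and to 5705, 6100 and 6081 CPM with vector.

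Within number 1, 21 of the 22 genes of the ATF4 arm were higher with METTL3, all but ATF5, and 13 of the 19 genes of the chaperone arm, against 49.9% of all genes. Within number 2 it was 6 of 22 and 8 of 19 (all genes 49.2%), and within number 3 it was 6 of 22 and 6 of 19 (all genes 49.4%). Libraries were paired by number, but for numbers 2 and 3 the crossed pairs correlated about as well, so which library is matched with which is uncertain there. Higher within number 1 and lower within both others were 15 genes of the ATF4 arm (68.2%) and 7 of the chaperone arm (36.8%), against 15.5% of all genes. In 11 genes of the ATF4 arm and 9 of the chaperone arm the METTL3 library of number 1 was above the other METTL3 libraries and the vector library of number 1 below the other vector libraries, against 13.1% of all genes. The median log2 difference of the ATF4 arm was 0.59 within number 1, -0.15 within number 2 and -0.11 within number 3. That of the chaperone arm was 0.19, -0.06 and -0.10, and that of all genes was within 0.01 of zero in each.

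**Figure D1:**
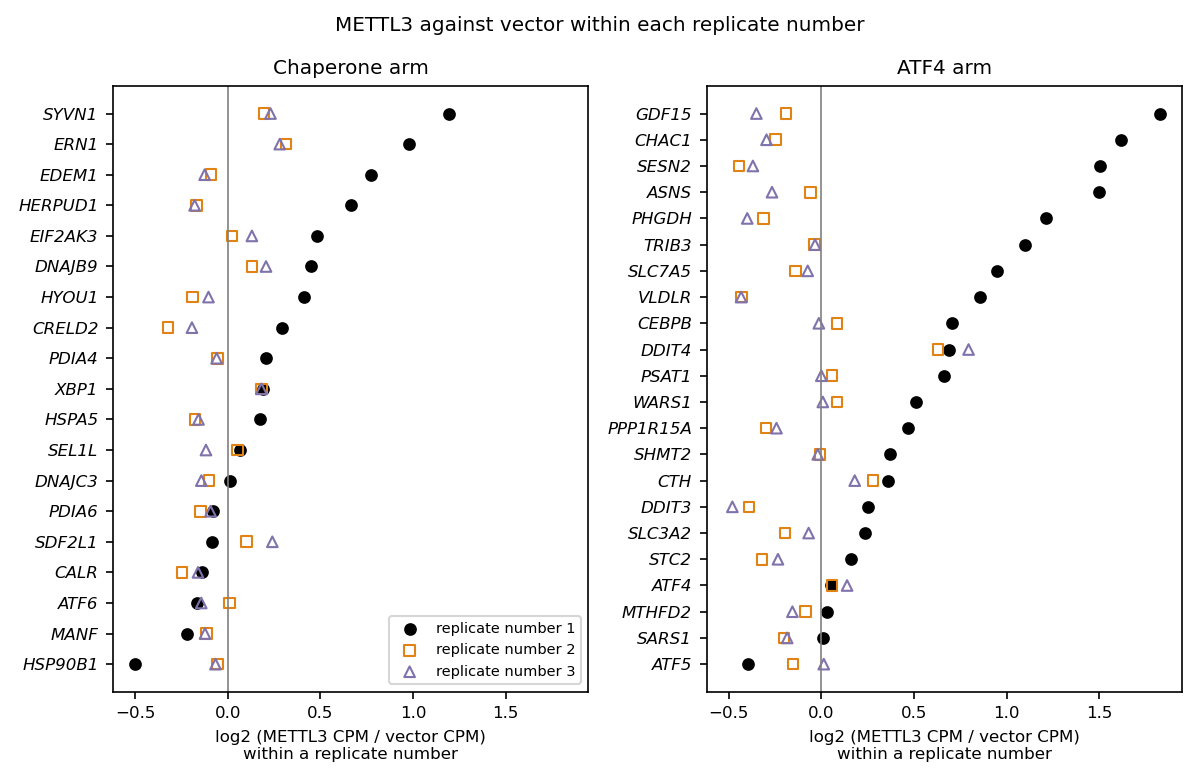
Log2 ratio of METTL3 to vector CPM within replicate number 1 (black circles), 2 (orange squares) and 3 (purple triangles) for each gene of the chaperone arm (left) and the ATF4 arm (right). The black circles lie right of 0 for 21 of 22 genes of the ATF4 arm and 13 of 19 of the chaperone arm, and the other symbols lie mostly left of 0 or near it.

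The interaction term measured how much the METTL3 difference within number 1 exceeded that within numbers 2 and 3. Number 1 holds 1 library of each group, so the spread in this test comes from replicates 2 and 3 only, with 2 residual degrees of freedom before edgeR shares information across genes. It called 16 genes of the ATF4 arm (72.7%), all 16 positive, where 14.7% of all genes were positive and called. In the chaperone arm it called 9 genes positive and 1, HSP90B1, negative (all genes 15.5% negative). The medians were 0.65 over the ATF4 arm, 0.27 over the chaperone arm and 0.00 over all genes.

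GDF15, a secreted stress hormone of the TGF-β family (chromosome 19, 18374731 to 18389176, plus strand, GRCh38), had the largest such difference among the members. It was at 56.8, 29.0 and 25.3 CPM in METTL3 replicates 1, 2 and 3 and at 16.0, 33.1 and 32.2 CPM in the vector replicates. The METTL3 library of number 1 was the highest of the 6 and the vector library of number 1 the lowest, so the groups overlapped. The METTL3 level was 3.56 times that of the vector within number 1 and 0.877 and 0.784 times within numbers 2 and 3. The interaction was 2.10 (SE 0.13, adjusted p = 2.7e-06, edgeR). CHAC1, which degrades glutathione, was at 23.1, 11.8 and 11.0 CPM with METTL3 and at 7.52, 14.0 and 13.5 CPM with vector. Its interaction was 1.89 (SE 0.14, adjusted p = 7.4e-06, edgeR). SESN2, a sestrin that restrains mTORC1 when leucine is short, was at 23.9, 14.0 and 13.2 CPM with METTL3 and at 8.41, 19.1 and 17.0 CPM with vector. Both genes followed the order of GDF15, with the replicate 1 libraries at the outer ends. The interaction of SESN2 was 1.92 (SE 0.15, adjusted p = 7.4e-06, edgeR).

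Genes of amino acid synthesis, tRNA charging and transport in the ATF4 arm were in part of the same order. PHGDH, the first enzyme of serine synthesis, was at 177, 92.4 and 83.2 CPM with METTL3 and at 76.2, 115 and 110 CPM with vector, and its interaction was 1.56 (SE 0.10, adjusted p = 4.8e-06, edgeR). PSAT1, the next enzyme of that path, was at 182, 131 and 124.8 CPM with METTL3 and at 115, 126 and 124.8 CPM with vector. Within numbers 2 and 3 METTL3 and vector were 1.04-fold and 1.00-fold apart, and the interaction was 0.63 (SE 0.09, adjusted p = 0.00022, edgeR). SLC7A5 was at 1006, 770 and 711 CPM with METTL3 and at 521, 848 and 748 CPM with vector. SLC3A2, the heavy chain that carries SLC7A5 to the membrane, was at 473, 352 and 360 CPM and at 402, 403 and 378 CPM. Only the METTL3 library of number 1 stood out for SLC3A2, while for SLC7A5 the vector library of number 1 was also the lowest, and the interactions were 1.06 (SE 0.11) and 0.37 (SE 0.09), both called. ASNS was at 1.96, 1.96 and 1.71 CPM with METTL3 and at 0.685, 2.04 and 2.06 CPM with vector, with the vector library of number 1 apart from the other 5. WARS1, the tryptophanyl-tRNA synthetase, was at 208, 150 and 139 CPM with METTL3 and at 146, 142 and 138 CPM with vector. SARS1, the seryl-tRNA synthetase, was at 162, 130 and 130 CPM and at 160, 149 and 147 CPM. For WARS1 only the METTL3 library of number 1 was high (interaction 0.47, SE 0.09, called), and for SARS1 both libraries of number 1 were high (0.20, SE 0.09, not called). Of the mitochondrial one-carbon enzymes, SHMT2 ranged from 172 CPM in vector replicate 1 to 222 CPM in METTL3 replicate 1, the order of GDF15 over a smaller range (interaction 0.38, called). MTHFD2 ranged from 202 to 239 CPM (0.15, not called).

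Feedback regulators and transcription factors of the arm were as follows. TRIB3, a pseudokinase induced by ATF4 that dampens it, was at 62.3, 41.7 and 39.6 CPM with METTL3 and at 29.1, 42.7 and 40.6 CPM with vector, with an interaction of 1.13 (SE 0.10, called). PPP1R15A, the GADD34 subunit that directs phosphatase to eIF2, was at 46.1, 47.2 and 48.9 CPM with METTL3 and at 33.3, 58.1 and 57.8 CPM with vector. For PPP1R15A the METTL3 libraries were alike and the vector libraries were not (interaction 0.74, SE 0.10, called). DDIT3, the pro-apoptotic factor CHOP, was at 5.62, 4.81 and 5.31 CPM with METTL3 and at 4.72, 6.31 and 7.41 CPM with vector, low in all 6 libraries. Its interaction was 0.69 (SE 0.21, adjusted p = 0.022, edgeR), and 31.6% of its exon bases lie antisense to MARS1 and MBD6, whose reads could not be told apart if strand was not used. CEBPB, a transcription factor induced by amino acid shortage, was at 151, 145 and 144 CPM with METTL3 and at 92.5, 137 and 145 CPM with vector, so that only the vector library of number 1 was low. VLDLR, a lipoprotein receptor, was at 25.5, 18.1 and 16.9 CPM and at 14.1, 24.4 and 22.8 CPM. Its interaction of 1.29 (SE 0.13) was called, as was that of CEBPB at 0.67 (SE 0.09).

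ATF4 mRNA itself (chromosome 22, 39519695 to 39522683, plus strand) was not of this order. It was at 381, 294 and 313 CPM with METTL3 and at 368, 283 and 284 CPM with vector. Both replicate 1 libraries were above the other 4, and within each number METTL3 was 1.04, 1.04 and 1.10 times the vector. The group difference was 0.08 (SE 0.16, adjusted p = 0.89, edgeR), and number 1 against the others was 0.35 (SE 0.09, adjusted p = 0.054, edgeR). ATF5, its close paralog, was at 16.9, 20.7 and 22.9 CPM with METTL3 and at 22.2, 23.1 and 22.7 CPM with vector, the 1 gene of the arm that was lower with METTL3 within number 1.

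**Figure D2:**
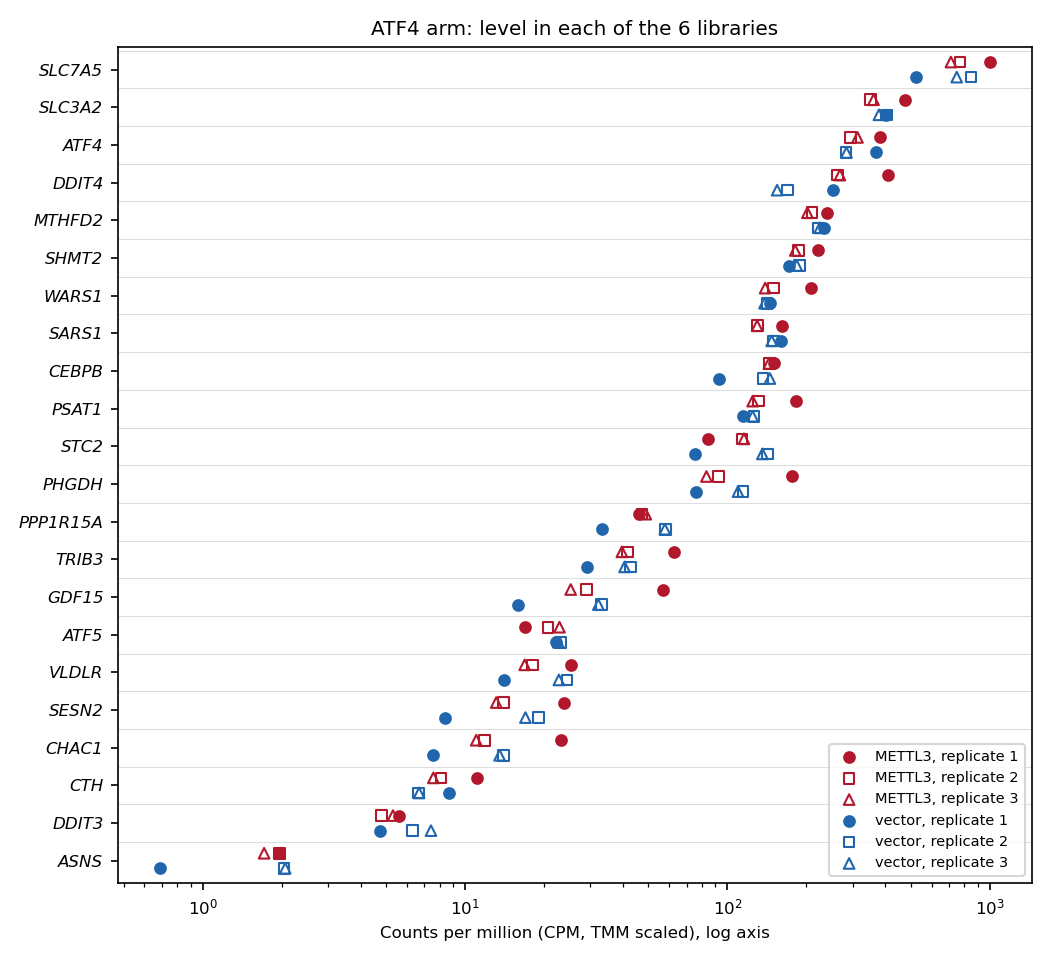
CPM (log axis) of each gene of the ATF4 arm in the 6 libraries, METTL3 in red above and vector in blue below, with replicate 1 as filled circles. For GDF15, CHAC1, SESN2, PHGDH, TRIB3 and SLC7A5 the filled red circle is the highest and the filled blue circle the lowest of the 6, whereas for ATF4 and DDIT4 both filled circles are high within their group.

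DDIT4, the inhibitor of mTORC1 also called REDD1 (chromosome 10, 72273919 to 72276036, plus strand), was the 1 gene of the ATF4 arm whose groups did not overlap, where 8.47% of all genes were higher without overlap. It was at 409.7, 262 and 268 CPM with METTL3 and at 254, 169 and 155 CPM with vector. METTL3 was 1.62, 1.55 and 1.74 times the vector within numbers 1, 2 and 3. The lowest METTL3 library lay only slightly above the highest vector library, that of number 1. The group difference was 0.70 (SE 0.24, adjusted p = 0.54, edgeR, and from 0.00047 to 0.90 over the alternatives on 5 or 6 libraries). Number 1 against the others was 0.64 (SE 0.09, adjusted p = 0.0089, edgeR). CTH, an enzyme of cysteine synthesis, was also higher with METTL3 within each number. It was at 11.1, 8.09 and 7.57 CPM with METTL3 and at 8.67, 6.66 and 6.68 CPM with vector, and number 1 against the others was 0.44 (SE 0.11, adjusted p = 0.045, edgeR). STC2, a secreted glycoprotein induced by ER stress, was the 1 member called lower in number 1. It was at 84.5, 114 and 116 CPM with METTL3 and at 75.5, 142 and 136 CPM with vector, and number 1 against the others was -0.65 (SE 0.12, adjusted p = 0.021, edgeR). With XBP1 these were the 4 members that differed between number 1 and the others, where 9.06% of all genes did. None of the 4 was called when METTL3 replicate 2 or vector replicate 3 was left out, and 1, DDIT4, when METTL3 replicate 3 was.

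In the chaperone arm the 3 sensors and the transcription factor differed among themselves. ERN1 (chromosome 17, 64039080 to 64130819, minus strand) was at 59.3, 41.7 and 42.4 CPM with METTL3 and at 30.1, 33.5 and 34.9 CPM with vector, and the groups did not overlap. METTL3 was 1.97, 1.24 and 1.22 times the vector within numbers 1, 2 and 3. The group difference was 0.54 (SE 0.16, adjusted p = 0.45, edgeR, and from 0.034 to 0.90 over the alternatives on 5 or 6 libraries), and the interaction was 0.68 (SE 0.10, adjusted p = 0.00028, edgeR). EIF2AK3 was at 31.1, 27.7 and 28.1 CPM with METTL3 and at 22.3, 27.3 and 25.6 CPM with vector. Its groups did not overlap either, but METTL3 replicate 2 and vector replicate 2 were 1.02-fold apart, and the group difference was 0.21 (SE 0.12, adjusted p = 0.65, edgeR), or 0.07 (SE 0.06, adjusted p = 0.52, edgeR) without number 1. ATF6 was at 59.6, 61.0 and 56.7 CPM with METTL3 and at 66.8, 60.7 and 62.6 CPM with vector, a difference of -0.10 (SE 0.10, adjusted p = 0.78, edgeR), and of -0.07 (SE 0.06) without number 1. XBP1 was at 119, 80.9 and 79.8 CPM with METTL3 and at 105, 71.3 and 70.3 CPM with vector. METTL3 was 1.14, 1.13 and 1.13 times the vector within the 3 numbers, and both libraries of number 1 were above the others (0.57, SE 0.08, adjusted p = 0.0088, edgeR).

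In the degradation machinery, the interaction was called for SYVN1, HERPUD1 and EDEM1 but not for SEL1L. SYVN1, the ubiquitin ligase HRD1, was at 98.7, 91.7 and 93.1 CPM with METTL3 and at 43.0, 80.1 and 79.4 CPM with vector, without overlap. The vector library of number 1 was the lowest by far, so METTL3 was 2.29 times the vector within number 1 and 1.15 and 1.17 times within numbers 2 and 3. The group difference was 0.49 (SE 0.22, adjusted p = 0.61, edgeR) and the interaction 0.98 (SE 0.09, adjusted p = 2e-05, edgeR). HERPUD1, which assembles the ligase complex, was at 71.1, 57.6 and 56.8 CPM with METTL3 and at 44.8, 64.7 and 64.3 CPM with vector. EDEM1, which removes mannose from misfolded glycoproteins, was at 129, 101 and 95.9 CPM and at 75.5, 108 and 105 CPM. Both were highest in the METTL3 and lowest in the vector library of number 1, with interactions of 0.84 (SE 0.09) and 0.88 (SE 0.09), both called. SEL1L, the partner of SYVN1, was at 266, 252 and 225 CPM with METTL3 and at 254, 243 and 244 CPM with vector, and its interaction was not called.

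The chaperones and disulfide isomerases differed less within number 1 than SYVN1, HERPUD1 and EDEM1. HSPA5 was at 1131, 1021 and 1026 CPM with METTL3 and at 1002, 1154 and 1145 CPM with vector, 1.13 times the vector within number 1 and 0.885 and 0.896 times the vector within numbers 2 and 3. The group difference was -0.05 (SE 0.12, adjusted p = 0.91, edgeR) and the interaction 0.34 (SE 0.08, adjusted p = 0.006, edgeR). HSP90B1, the ER HSP90 called GRP94, went the other way. It was at 873, 1016 and 1063 CPM with METTL3 and at 1237, 1055 and 1113 CPM with vector, with an interaction of -0.44 (SE 0.09, adjusted p = 0.002, edgeR). HYOU1, an exchange factor of HSPA5, was at 424, 421 and 421 CPM with METTL3 and at 319, 481 and 452 CPM with vector, so that the METTL3 libraries were alike. CRELD2, a secreted ER protein, was at 157, 129 and 139 CPM and at 128, 161 and 159 CPM. The interactions of HYOU1 (0.56, SE 0.09), CRELD2 (0.55, SE 0.09) and PDIA4 (0.27, SE 0.09) were called, and EIF2AK3 (0.41, SE 0.11) completes the 9 that were positive. CALR was the 1 member lower with METTL3 without overlap, where 8.93% of all genes were. It was at 957, 967 and 982 CPM with METTL3 and at 1054, 1147 and 1098 CPM with vector, and the group difference was -0.18 (SE 0.11, adjusted p = 0.66, edgeR). DNAJB9, a cofactor of HSPA5 that is a target of XBP1, was at 19.3, 15.0 and 16.5 CPM with METTL3 and at 14.1, 13.7 and 14.3 CPM with vector, without overlap, and its group difference was 0.27 (SE 0.14, adjusted p = 0.63, edgeR), or 0.17 (SE 0.08, adjusted p = 0.19, edgeR) without number 1. In the other 5 genes, DNAJC3, MANF, PDIA4, PDIA6 and SDF2L1, the METTL3 level was between 0.859 and 1.18 times the vector within every number. Of the exon bases of PDIA6, 25.2% lie antisense to ATP6V1C2.

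**Figure D3:**
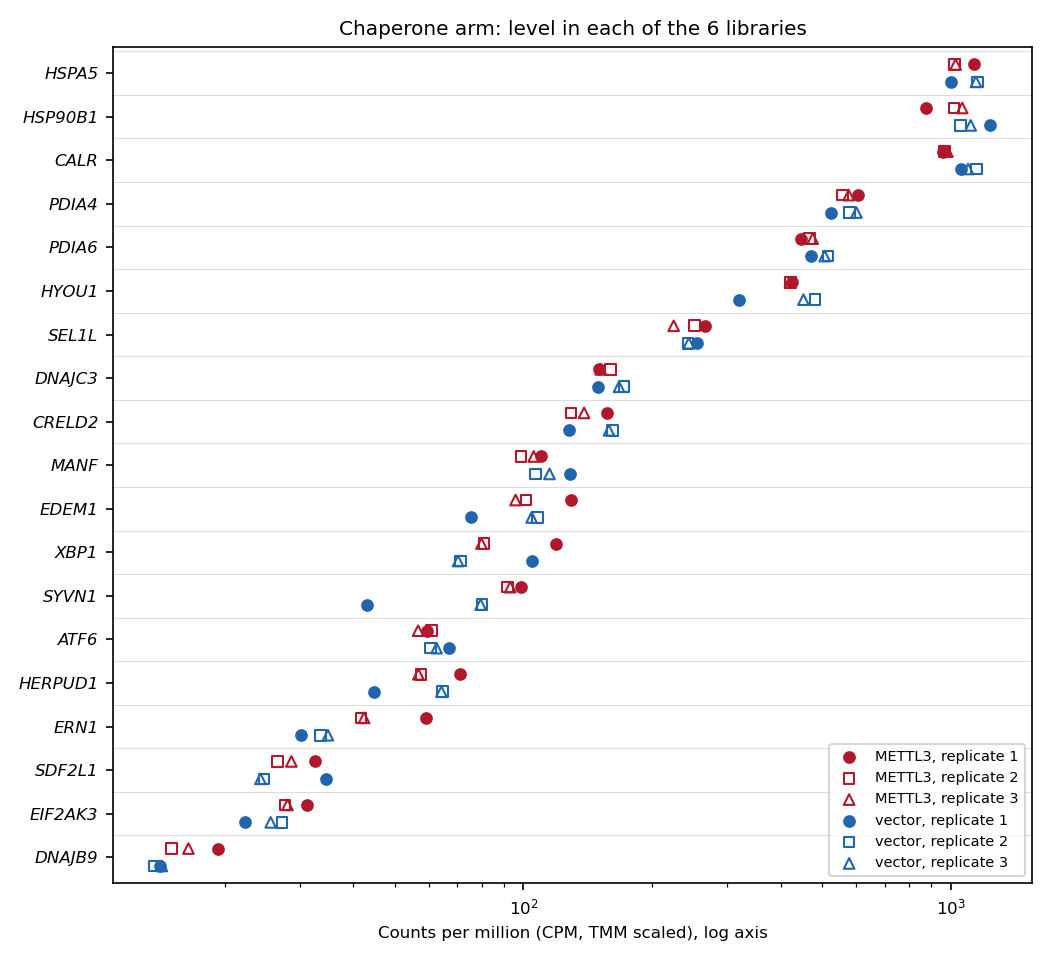
CPM (log axis) of each gene of the chaperone arm in the 6 libraries, METTL3 in red above and vector in blue below, with replicate 1 as filled circles. ERN1, EIF2AK3, SYVN1 and DNAJB9 are higher with METTL3 without overlap, and CALR is lower. For XBP1 both filled circles lie above the open symbols.

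Without replicate number 1, replicates 2 and 3 of each group differed in 3362 of 22046 genes (15.2%) by the same test, 6.66% higher and 8.59% lower with METTL3. All 7 epithelial markers were called higher there. The members called there were 10 of 22 in the ATF4 arm, 1 higher and 9 lower, and 7 of 19 in the chaperone arm, 3 higher and 4 lower. DESeq2 on the same 4 libraries called 10 and 7. Both fits have 2 libraries per group, and number 1 was left out with its difference already known. Their SEs measure only the spread between these libraries, which may be technical. DDIT4 was the 1 gene of the ATF4 arm called higher, at 0.71 (SE 0.06, adjusted p = 1.2e-06, edgeR). Those called lower were DDIT3 at -0.44 (SE 0.12), VLDLR at -0.43 (SE 0.07), SESN2 at -0.41 (SE 0.08), PHGDH at -0.35 (SE 0.06), STC2 at -0.28 (SE 0.05), PPP1R15A at -0.27 (SE 0.06), CHAC1 at -0.27 (SE 0.08), GDF15 at -0.27 (SE 0.07) and SARS1 at -0.19 (SE 0.05). With all 6 libraries CHAC1, SESN2, PHGDH and GDF15 were at 0.39 (SE 0.33), 0.20 (SE 0.33), 0.23 (SE 0.29) and 0.45 (SE 0.36), so that their direction turned. In the chaperone arm ERN1 at 0.30 (SE 0.06), SYVN1 at 0.21 (SE 0.05) and XBP1 at 0.18 (SE 0.05) were called higher. CRELD2 at -0.26 (SE 0.05), CALR at -0.21 (SE 0.05), HERPUD1 at -0.18 (SE 0.05) and HSPA5 at -0.17 (SE 0.05) were called lower. ATF4 was at 0.10 (SE 0.05, adjusted p = 0.26, edgeR). DDIT4, ERN1, SYVN1, XBP1 and CALR had 1 direction within each replicate number and were called without number 1. Both parts use replicates 2 and 3, so a call there largely sets the direction within numbers 2 and 3. Of all genes, 15.2% were called without number 1, and the share with both was not counted. On all 6 libraries these members were not called after the filter on low counts, and DDIT4 and ERN1 were called without that filter. Both genes pass the filter, and their fold changes with and without it were close (0.70 and 0.73 for DDIT4, 0.54 and 0.56 for ERN1). Those 2 calls thus turn on how the spread was estimated and are no separate support.

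**Figure D4:**
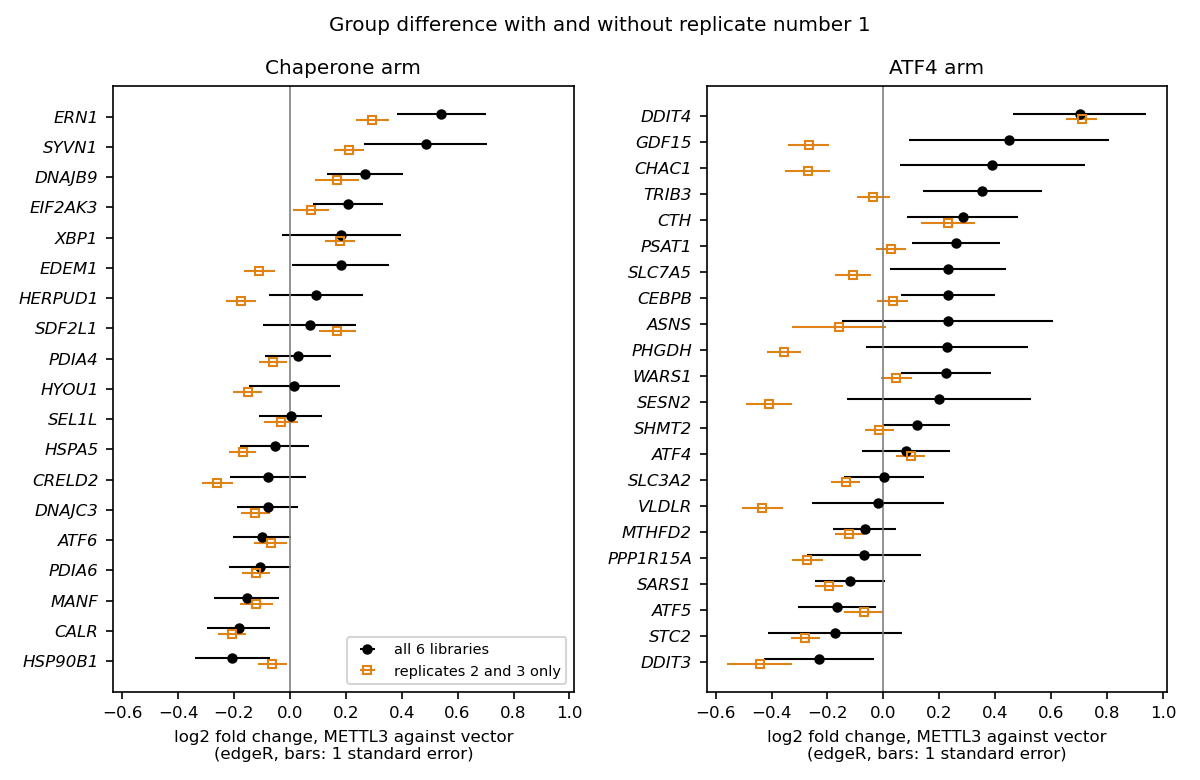
Log2 fold change of METTL3 against vector from edgeR, with bars of 1 SE, on all 6 libraries (black) and on replicates 2 and 3 of each group (orange), for the chaperone arm (left) and the ATF4 arm (right). DDIT4 is at 0.70 and 0.71, whereas GDF15, CHAC1, SESN2 and PHGDH are right of 0 with all libraries and left of 0 without replicate number 1.

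GC content moved with these values. GC content and length were those of the transcript tagged as canonical by Ensembl. Across 14664 genes of at least 1 CPM, which are not independent replicates, the log2 difference within number 1 had a Spearman correlation of 0.40 with GC content and of 0.33 with length. The median GC content was 57.0% in the ATF4 arm, 47.1% in the chaperone arm and 48.9% over all genes tested. After both trends were taken out library by library, a setting added after the data were seen, the interaction for number 1 was called positive for 18 and negative for 1 (ATF5) of the 22 genes of the ATF4 arm, and for 9 positive and 2 negative of the 19 of the chaperone arm (all genes 9.24% positive, 18.1% negative). Its median was 0.47 and 0.19 in the arms and -0.06 over all genes. GDF15 was then at 1.89, CHAC1 at 1.70, SESN2 at 1.53, PHGDH at 1.42 and SLC7A5 at 0.54. GGACT, a sequence at which METTL3 often methylates, occurred at a median of 1.09 per kilobase of transcript in the ATF4 arm, 0.878 in the chaperone arm and 0.914 over all genes. Its part in the differences was not tested.

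Other genes of each pathway were listed by their known role. Of 32 further ATF4 targets, 30 were tested, and NUPR1 and FGF21 were too low. Within number 1, 26 of the 30 were higher with METTL3 (all genes 49.9%), and 12 were higher there and lower within both other numbers (all genes 15.5%). The interaction was called positive for 18 and negative for 1, NARS1 (all genes 14.7% and 15.5%). SLC6A9, a glycine transporter, was at 17.1, 9.21 and 8.01 CPM with METTL3 and at 4.51, 7.65 and 6.09 CPM with vector, without overlap. Its group difference was 0.91 (SE 0.31, adjusted p = 0.55, edgeR), and that of SLC7A11, the cystine transporter, was 0.35 (SE 0.12, adjusted p = 0.55, edgeR). EIF4EBP1, the translation repressor 4E-BP1, was at 152, 159 and 161 CPM with METTL3 and at 172, 230 and 238 CPM with vector. All METTL3 libraries lay below the vector libraries, the group difference was -0.44 (SE 0.14, adjusted p = 0.52, edgeR), and it was called lower without number 1 at -0.55 (adjusted p = 6.1e-06, edgeR). EIF4EBP1 was picked by its p-value on libraries that include replicates 2 and 3, so this call is no separate support. Of the 30 tested, 5 were called without number 1 (16.7%, 1 higher and 4 lower), against 15.2% of all genes. CARE was in the windows of 13 of 23 of these targets (56.5%), against 14.3% of 21 genes of the ATF4 arm. TNFRSF10B, a death receptor raised by CHOP, and KLHL24 were lower in number 1 at -0.61 (SE 0.14, adjusted p = 0.039, edgeR) and -0.58 (SE 0.14, adjusted p = 0.043, edgeR), while CBS at -0.56 (SE 0.17, adjusted p = 0.081, edgeR) was not called.

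Of 35 other genes of ER folding and degradation, 34 were tested and DERL3 was listed at 0 in all libraries. Within number 1, 20 (58.8%) were higher with METTL3 (all genes 49.9%), and the interaction was called positive for 8 and negative for 7 (all genes 14.7% and 15.5%), with a median of 0.07. P4HB, a disulfide isomerase, was at 1124, 959 and 923 CPM with METTL3 and at 768, 810 and 782 CPM with vector, without overlap, and its group difference was 0.35 (SE 0.13, adjusted p = 0.56, edgeR). CREB3L2, an ER-anchored transcription factor, was at 134, 130 and 117 CPM and at 59.7, 109 and 103 CPM, also without overlap, with 0.49 (SE 0.21, adjusted p = 0.60, edgeR). SIL1, an exchange factor of HSPA5, was at 32.3, 32.8 and 30.8 CPM and at 38.8, 37.7 and 39.3 CPM, with -0.27 (SE 0.10, adjusted p = 0.56, edgeR). Without number 1 these 3 were called in the same direction, at 0.24, 0.22 and -0.28. They were picked by their p-values on libraries that include replicates 2 and 3, so these calls are no separate support. Of the 34 tested, 6 were called without number 1 (17.6%, 2 higher and 4 lower), against 15.2% of all genes. Number 1 against the others was called for KDELR3 at 0.48 (SE 0.10) and HSPA13 at -0.37 (SE 0.08), and not for SEC61B at 0.40 (SE 0.12, adjusted p = 0.081, edgeR). Of 29 genes of this list with a promoter window, 2 held the ER stress element (6.9%), 0 its second form, 1 CARE and 4 UPRE (13.8%).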

How the data were processed

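Poly-A RNA of 6 OVCAR5 libraries was measured. The authors aligned reads to hg38 with hisat2 and deposited raw counts per gene made with Subread; versions, annotation and strand setting are not given in the sources used here, and labels (stranded TruSeq, paired-end) and methods (NEBNext, single-end) differ. Between 67.6% and 70.5% of counts from 1 to 20 were even, so halved counts were also tested. GENCODE 44 gave names, positions and lengths. In R 4.3.3, edgeR 4.0.16 (filterByExpr, TMM, robust glmQLFit, glmQLFTest) tested METTL3 against vector, each replicate number against the other 2 with group in the model, and the METTL3 difference within a number against that within the other 2. P-values were adjusted by Benjamini-Hochberg over all genes tested, with a threshold of 0.05 (called). SE was derived from the fold change and F (size divided by root F). CPM used TMM library sizes, and ratios within a number added 0.01 CPM. DESeq2 1.42.0 was an alternative. The functions were tested on simulated data.

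The members, lists and alternatives were chosen with earlier results of these data known. Named genes were the members, and from each other list the 3 with the smallest p for METTL3 and for number 1. Deviations from the group mean correlated between libraries of the same number at 0.33, 0.12 and 0.17 for numbers 1, 2 and 3. Each was over 0.1, so the numbers were taken to pair libraries, which comes from the values, not the labels. METTL3 replicate 2 with vector replicate 3 reached 0.205 and METTL3 replicate 3 with vector replicate 2 reached 0.133. Deviations from a group mean cancel within the group. A shared departure of number 1 therefore tends to make those of numbers 2 and 3 correlate, whichever libraries are matched. The values thus do not settle the pairing of numbers 2 and 3.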

Additional observations from a re-analysis of the deposited data

How the results depend on the processing

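For METTL3 against vector, DESeq2 called 283 genes, no filter on low counts 560 with 1 gene in each arm (ERN1 and DDIT4), replicates 2 and 3 alone 3362 with 7 genes of the chaperone and 10 of the ATF4 arm, and DESeq2 on those 4 libraries 3218, 7 and 10. Leaving out 1 library gave 0 to 367 genes, the 367 without vector replicate 1, and 0 members. With the replicate number as a block, 0 genes were called, as without it, and no member's call changed. Number 1 against the others called 3543 genes by DESeq2, 4220 without a filter and 3352 with the GC and length trend removed, with 2 genes of the chaperone arm under DESeq2, no filter and upper-quartile scaling. Leaving out 1 library moved this count from 233 (without vector replicate 3) to 9028 (without METTL3 replicate 1), the chaperone arm from 0 to 13 and the ATF4 arm from 0 to 18. For numbers 2 and 3 no filter gave 14 and 20 genes, and for their interactions DESeq2 gave 4 and 0 and no filter 10 and 1. The interaction for number 1 kept each called member's direction in all alternatives, and PDIA4 alone was no longer called, with the trend removed. No library was left out in these alternatives. All of them rest on the same METTL3 and vector library of number 1, so they cannot show whether the direction holds in other libraries.

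In replicates 2 and 3 alone the genes with a positive log2 fold change of METTL3 against vector went from 15 to 6 of 22 in the ATF4 arm and from 11 to 6 of 19 in the chaperone arm. Among those whose fold change is printed on all 6 libraries, the ones that turned were CHAC1 (-0.27), PHGDH (-0.35), SESN2 (-0.41) and GDF15 (-0.27). With 1 library left out the range was -0.015 to 0.22 for ATF4, -0.019 to 0.59 for CHAC1, -0.12 to 0.0066 for HSPA5, -0.17 to 0.44 for PHGDH, -0.11 to 0.44 for SESN2 and -0.0085 to 0.40 for XBP1, with the turn on leaving out METTL3 replicate 1 (ATF4, CHAC1, PHGDH, SESN2 and XBP1), vector replicate 1 (SESN2) or vector replicate 2 or 3 (HSPA5). The cause was not tested. The lowest counts behind a member were those of ASNS (65 to 243) and DDIT3 (448 to 819), for which counting error matters most.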

Other observations

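All 12 listed cytosolic and mitochondrial heat shock genes were tested. Number 1 against the others was called lower for 4 of them (all genes 9.06% in either direction), HSPA1B at -1.10 (SE 0.16, adjusted p = 0.0092, edgeR), HSPA1A at -1.02 (SE 0.15, adjusted p = 0.011, edgeR), BAG3 at -0.71 (SE 0.13, adjusted p = 0.021, edgeR) and HSF1, the heat shock transcription factor (adjusted p = 0.026, edgeR). HSPA1A was at 80.3, 129 and 133 CPM in METTL3 replicates 1, 2 and 3 and at 50.4, 132 and 128 CPM in the vector replicates. HSPA1A and HSPA1B are near-identical copies whose reads may have been split or dropped. HSP90AA1, the inducible cytosolic HSP90, was at 2356, 4286 and 4586 CPM with METTL3 and at 6079, 4565 and 5138 CPM with vector. The METTL3 library of number 1 was the lowest and the vector library of number 1 the highest, the reverse of GDF15. The interaction for number 1 was -1.24 (SE 0.10, adjusted p = 1.4e-05, edgeR) for HSP90AA1 and -0.95 (SE 0.08, adjusted p = 1.6e-05, edgeR) for HSPD1, the mitochondrial HSP60, and over the list it was called for 5 genes positive and 6 negative (all genes 14.7% and 15.5%). The group differences of HSP90AA1, HSPD1 and HSPE1, -0.49, -0.26 and -0.25, were not called.

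Of 16 genes of the eIF2 kinases and machinery, 6 were lower with METTL3 without overlap (37.5%, all genes 8.93%), EIF2B1, EIF2B3, EIF2B5, EIF2S1, EIF2S2 and EIF2S3, and 1 was higher, PPP1R15B. EIF2S1, the eIF2 subunit that PERK phosphorylates, was at 188, 208 and 214 CPM with METTL3 and at 302, 214 and 231 CPM with vector, where the vector library of number 1 was apart from the other 5. The group differences of EIF2B3, EIF2S2 and EIF2S1 were -0.38 (SE 0.17), -0.32 (SE 0.15) and -0.30 (SE 0.15), with adjusted p-values of 0.61, 0.62 and 0.63 by edgeR. Without number 1 only EIF2AK1, the heme-regulated kinase, was called in this list, higher at 0.19 (adjusted p = 0.018, edgeR). EIF2AK4, the amino acid sensor GCN2, was lower in number 1 at -0.42 (SE 0.09, adjusted p = 0.03, edgeR), and IMPACT (0.17) and EIF2AK2 (-0.13) were not called.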
